A study of Homo sapiens with 2 samples.

Results

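Small noncoding RNA genes whose transcripts carry no poly(A) tail were examined in NUDT21 CUT&Tag of T-cell acute lymphoblastic leukemia (T-ALL) cells. They comprised the genes of the spliceosomal small nuclear RNAs (snRNAs), the variant U1 genes, U7, 7SK, 7SL and the RNAs of RNase MRP and RNase P. Members were chosen by their names in GENCODE release 44, as 27 listed genes and all 27 genes named RNVU1 followed by a number. These were 54 of 62700 annotated genes, with lengths of 63 to 333 bp. RNA polymerase II (Pol II) transcribes 43 of them, and RNA polymerase III (Pol III) transcribes 11.

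J.gamma1, a human T-ALL cell line derived from Jurkat, was profiled in 2 biological replicates that form 1 group, with no treatment in the labels. In CUT&Tag an antibody, here against NUDT21, tethers a transposase to chromatin, and the DNA that it cuts is sequenced. No control antibody sample was analysed here. Peak lists were made by the authors for each replicate on its own, with 97162 peaks in replicate 1 and 68532 in replicate 2 and a median fold at the summit over local background of 3.97 and 4.23. The lists carry no read totals, so depth in reads is unknown.

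NUDT21 is the subunit of cleavage factor Im that recognises UGUA in pre-mRNA and takes part in the choice of poly(A) sites. The genes described here end by other routes. Pol II snRNA genes have a proximal sequence element before the start, bound by the SNAP complex, and their RNA is cut by the Integrator complex near a 3′ box just after the gene. Pol III genes of the U6 and 7SK type have the same kind of element together with a TATA box and end at a run of T, whereas 7SL genes also rely on sequences inside the gene.

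Start regions of the Pol II genes on which the results turn are shown first, as the 80 bases before the gene start in the hg38 genome, read 5′ to 3′ on the strand of the gene. Capitals mark the letters ACCNT where they began 75 to 50 bases before the start, the place of the proximal sequence element, and TTATA where it began 36 to 23 bases before the start. RNU1-1 (chr1:16514286-16514365, minus strand) and RNU1-3 (chr1:16666949-16667028, minus strand) are major U1 genes with peaks at the start, and the RNU1-3 stretch is identical to those of RNU1-2 and RNU1-4. RNVU1-25 (chr1:146409823-146409902, plus strand) had the highest fold among variant U1 genes in replicate 1. RNVU1-29 (chr1:146376727-146376806, plus strand) and RNVU1-18 (chr1:143729571-143729650, minus strand) encode the same RNA as RNU1-1, and only the former had a peak. RNU4-2 (chr12:120291904-120291983, minus strand), RNU4ATAC (chr2:121530801-121530880, plus strand) and RNU7-1 (chr12:6943736-6943815, plus strand) stand for other families.
RNU1-1: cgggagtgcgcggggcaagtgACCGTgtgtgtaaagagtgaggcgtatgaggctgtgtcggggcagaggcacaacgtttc
RNU1-3: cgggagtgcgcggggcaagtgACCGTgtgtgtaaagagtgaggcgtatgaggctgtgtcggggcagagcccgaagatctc
RNVU1-25: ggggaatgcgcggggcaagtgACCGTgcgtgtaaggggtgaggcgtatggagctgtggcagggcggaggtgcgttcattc
RNVU1-29: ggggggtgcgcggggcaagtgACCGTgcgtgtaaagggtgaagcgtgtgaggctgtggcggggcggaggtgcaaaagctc
RNVU1-18: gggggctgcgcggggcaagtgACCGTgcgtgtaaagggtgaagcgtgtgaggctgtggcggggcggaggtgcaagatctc
RNU4-2: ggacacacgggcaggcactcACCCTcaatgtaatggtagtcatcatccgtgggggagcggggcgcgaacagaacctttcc
RNU4ATAC: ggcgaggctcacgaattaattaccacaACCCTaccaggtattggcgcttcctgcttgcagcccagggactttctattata
RNU7-1: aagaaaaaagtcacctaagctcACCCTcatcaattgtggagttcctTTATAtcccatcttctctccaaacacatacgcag

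The same 80 bases are shown for Pol III genes, with the same capitals, because members and an exact copy differed in their calls. RNU6-8 (chr14:32203270-32203349, minus strand) and RNU6-1 (chr15:67840046-67840125, minus strand) had a peak only in replicate 1. RNU6-6P (chr10:13217189-13217268, plus strand) is an exact copy of the RNU6-1 gene without a peak in either replicate. RN7SK (chr6:52995541-52995620, plus strand), RPPH1 (chr14:20343408-20343487, minus strand) and RN7SL1 (chr14:49586500-49586579, plus strand) had peaks in both.
RNU6-8: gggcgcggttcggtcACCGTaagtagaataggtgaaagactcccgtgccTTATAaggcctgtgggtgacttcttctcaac
RNU6-1: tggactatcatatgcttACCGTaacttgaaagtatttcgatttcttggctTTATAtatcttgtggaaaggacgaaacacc
RNU6-6P: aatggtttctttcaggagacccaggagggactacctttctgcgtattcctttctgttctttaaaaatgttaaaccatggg
RN7SK: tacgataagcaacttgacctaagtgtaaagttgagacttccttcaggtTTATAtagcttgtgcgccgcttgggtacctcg
RPPH1: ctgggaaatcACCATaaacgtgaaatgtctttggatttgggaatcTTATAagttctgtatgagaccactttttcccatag
RN7SL1: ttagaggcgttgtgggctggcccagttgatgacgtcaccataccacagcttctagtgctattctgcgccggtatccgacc

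A peak within 1 kb of the gene was called in both replicates at 34 of the 54 members, or 63.0% (95% Wilson interval 49.6 to 74.6, which covers counting error only). Replicate 1 had a peak at 37 members and replicate 2 at 34, and no member had a peak only in replicate 2. The same rule called 41.8% of all annotated genes in replicate 1, 33.8% in replicate 2 and 32.7% in both. Most annotated genes are far longer, and of the genes no longer than the longest member 12.3% (1346 of 10944) were called in both. The share of members was above each of these shares, but 12 of the 54 have the start of a protein-coding gene within 3000 bp, and all 12 were called.

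Without the variant U1 genes, 24 of 27 members had a peak in both replicates (88.9%, 95% Wilson interval 71.9 to 96.1). RNU5B-1, a U5 gene, was the only one of these 27 without a peak in either replicate. RNU6-8 and RNU6-1 had a peak in replicate 1 only. Of the variant U1 genes, 10 of 27 (37.0%) were called in both. The shares by the same rule were 32.7% of all annotated genes and 12.3% of genes no longer than the longest member. A stricter measure, described below, required a summit within 250 bp of the start in both replicates. The sets did not differ by that measure, with 9 of 27 members outside the variant U1 genes and 9 of 27 variant U1 genes (33.3% each).

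**Figure D1:**
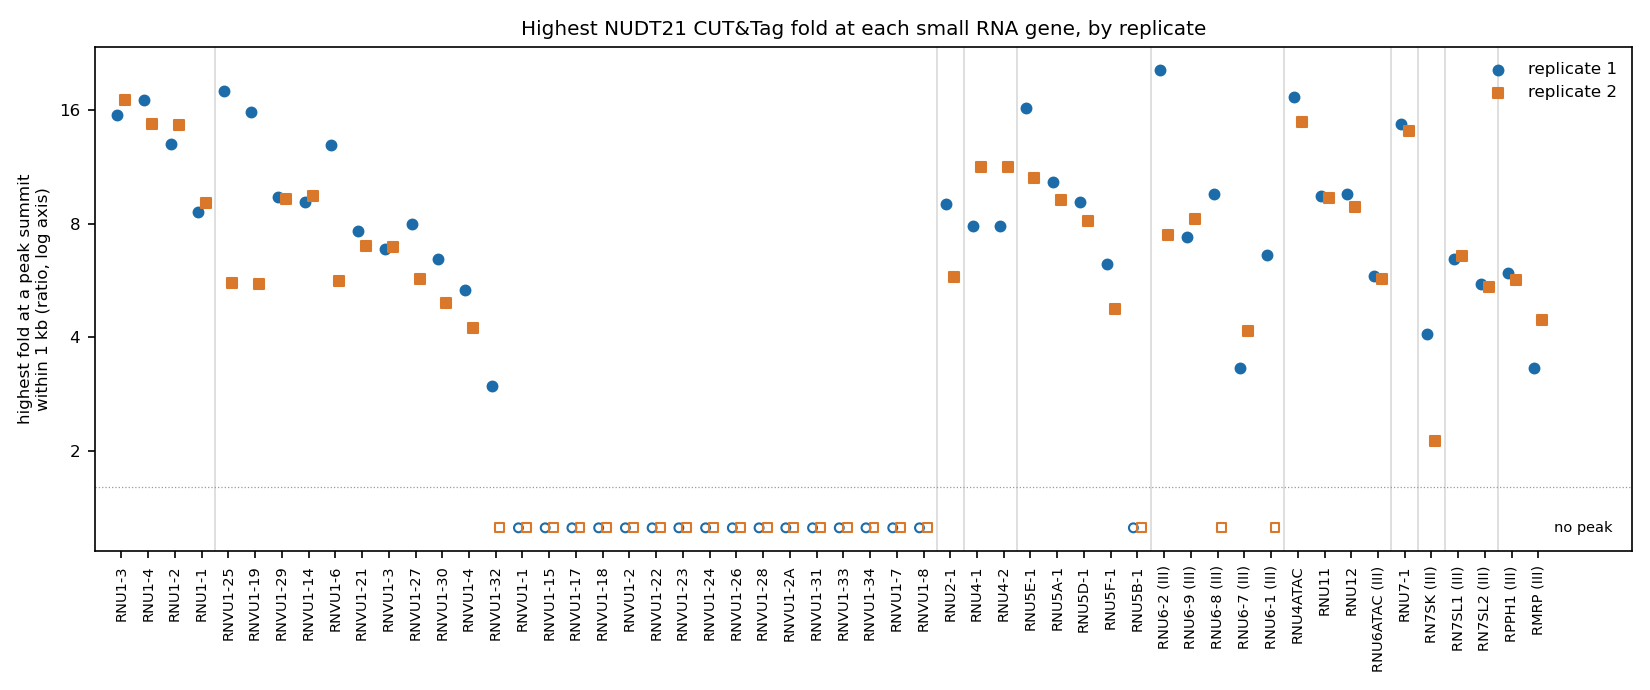
Each column is 1 gene, grouped by family and ordered within the family by the sum of both folds, with Pol III genes marked III. The vertical log axis gives the highest fold among peaks with an edge within 1 kb, in replicate 1 (circles) and replicate 2 (squares). Summits of these peaks can lie farther away, as at RNU6-2 and RNU6-9. Open symbols below the dotted line are genes without a peak. RNU1-3 reached 15.6 and 17.1, whereas 16 variant U1 genes and RNU5B-1 had no peak in either replicate.

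The same rule was applied to other copies of these families. GENCODE lists 2997 further genes and pseudogenes named as copies of the member families, and 193 of them, or 6.44%, had a peak within 1 kb in both replicates. By family the share was 10.4% for U1 (12 of 115), 20.2% for U2 (18 of 89), 11.5% for U5 (3 of 26) and 10.9% for 7SL (92 of 847). It was 6.32% for U4 (6 of 95), 4.52% for U7 (7 of 155), 4.35% for 7SK (13 of 299) and 3.07% for U6 (40 of 1305). Copies of the minor spliceosomal genes gave 3.17% (2 of 63), and none of the 3 copies of the RNase MRP and RNase P genes was called. The 18 called U2 copies include 10 exact copies of RNU2-1 in the chromosome 17 array.

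**Figure D2:**
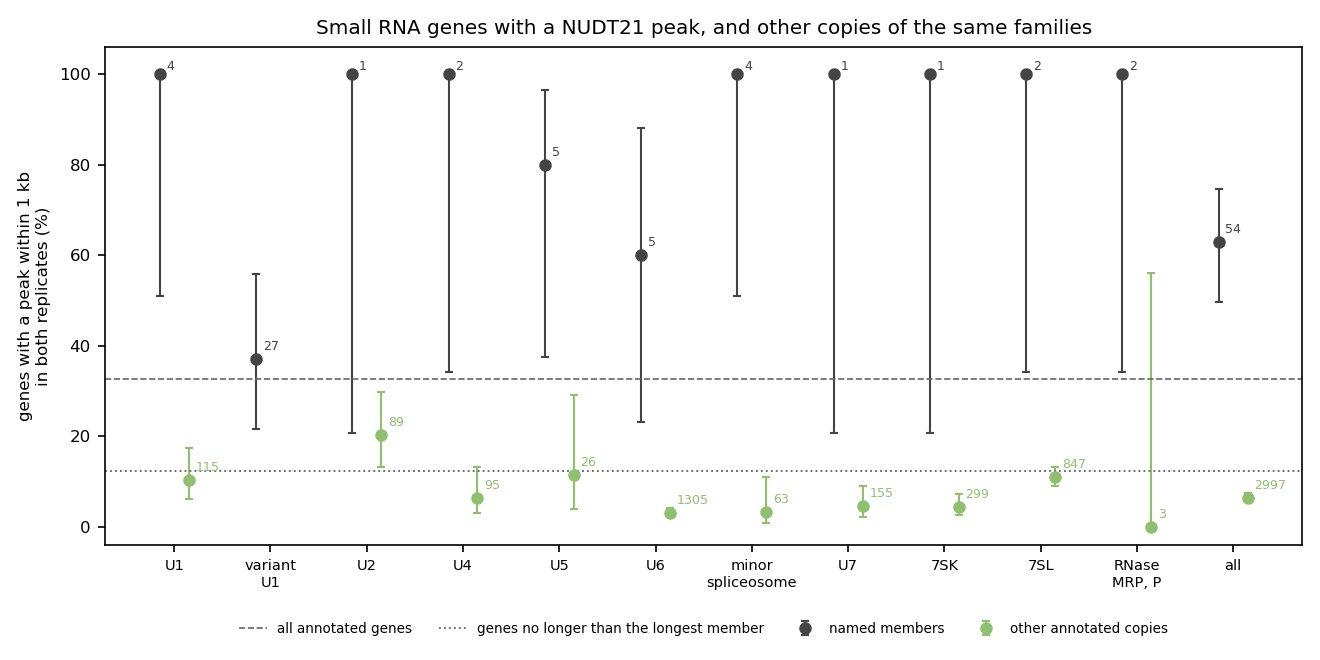
Points give the percentage of genes with a peak within 1 kb in both replicates for the named members (dark) and for other annotated copies of the same family (green), bars are 95% Wilson intervals for counting error, and small numbers are genes. The dashed line is the share of all annotated genes (32.7%) and the dotted line that of genes no longer than the longest member (12.3%). Members lie above the copies in each family, with 63.0% against 6.44% over all.

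Medians of the folds at called members lay high in each list, at percentile 95.9 in replicate 1 and 92.6 in replicate 2, with single members as low as 18.3 and 0.108. These percentiles set the highest fold of each gene against all peaks, and the highest folds of other called genes were not compared. The median of the highest fold was 8.60 in replicate 1 (37 members, range 2.96 to 20.5) and 7.23 in replicate 2 (34 members, range 2.13 to 17.1). The fold of 20.5 came from RNU6-2, with a summit 29904 bp upstream of that gene's start. For Pol II members the medians were 9.28 and 9.06, and for Pol III members 5.91 and 5.67. The ranges of Pol II and Pol III members overlapped in both replicates. Across the 34 members called in both, the folds of the replicates had a Spearman's rho of 0.647, and the nearest summits lay within 100 bp of each other at 25 of 34. These points share loci and possibly a background library, so rho is a description without a p-value.

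Peaks of the replicates were backed by unequal numbers of fragments. At the strongest peak of each called member, the number of fragments recovered at the summit had a median of 78 (range 15 to 331) in replicate 1 and 47 (range 15 to 178) in replicate 2. Over 1000 sampled peaks of each list the medians were 29 and 19. The 3 members called in replicate 1 alone had 15 (RNVU1-32), 42 (RNU6-1) and 52 (RNU6-8) fragments at the summit in that replicate. The part of depth in these missing calls was not tested.

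Families differed in where the summit lay. A stricter measure, chosen after the peaks were seen, asked for a summit within 250 bp of the annotated start in both replicates, and 18 of 54 members met it. They were 15 of 43 Pol II genes and 3 of 11 Pol III genes. Of genes no longer than the longest member 1.79% met it, and of the other family copies 0.734% (22 of 2997), 15 of them 7SL copies. The nearest summit lay upstream of the start at 13 of these 18 members in replicate 1 and 11 of 18 in replicate 2.

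**Figure D3:**
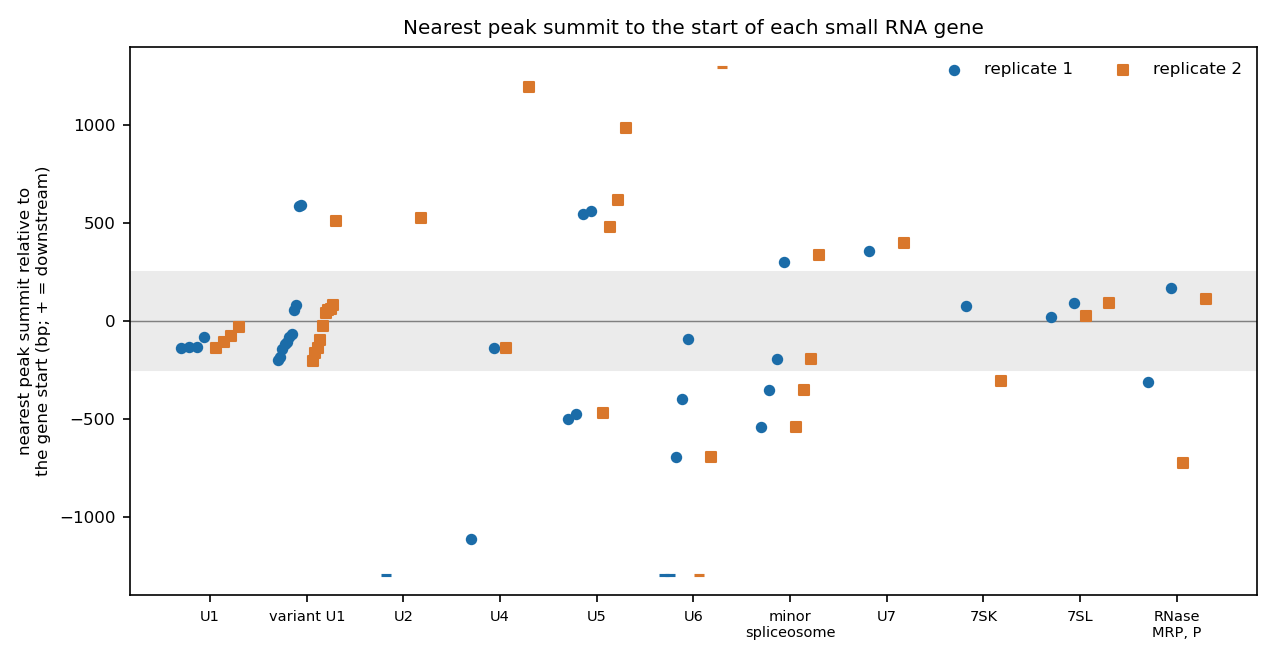
Each point is the peak summit nearest to the start of 1 called gene, in replicate 1 (circles) or replicate 2 (squares), as distance from the start in bp with positive values downstream. The grey band covers 250 bp either side of the start, and dashes at the upper and lower edges mark summits farther than 1200 bp. All 4 U1 genes and 9 of the variant U1 genes lie in the band in both replicates, whereas no U5 gene does.

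All 4 major U1 genes had a peak over the gene with its summit just before the start. U1 snRNA pairs with the 5′ splice site and also protects pre-mRNA from premature polyadenylation. RNU1-3 had folds of 15.6 in replicate 1 and 17.1 in replicate 2, and its 320 and 168 fragments lay at summits 135 and 77 bp upstream. RNU1-4 had folds of 17.0 and 14.7, with 331 and 178 fragments at summits 135 and 137 bp upstream. Both are above 99% of the peaks of either list.

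RNU1-2 had folds of 12.99 and 14.6, with 154 and 98 fragments, and RNU1-1 had 8.60 and 9.06, with 195 and 109. The control level, the background recovered at the summit, was 20 and 11.1 at RNU1-1, 10 and 5.77 at RNU1-2, 18 and 8.91 at RNU1-3, and 17 and 11.1 at RNU1-4. Over sampled peaks its median was 6 in replicate 1 and 3.90 in replicate 2. RNU1-1 had the lowest fold and RNU1-2 the next in both replicates, while RNU1-3 and RNU1-4 changed places. RNU1-2 and RNU1-3 have no other annotated start within 3000 bp. RNU1-4 lies near the start of CROCC and of a noncoding RNA, and RNU1-1 near those of a noncoding RNA and a further gene. In both replicates the RNU1-4 summit lay nearer to the start of its noncoding RNA neighbour than to the start of RNU1-4. The RNU1-1 summit lay nearer to the start of RNU1-1 in both. To which start the RNU1-4 peak belongs was not tested.

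Reads from the major U1 genes could not be placed with certainty. The RNU1-1 gene sequence occurs unchanged at 8 places on the main chromosomes and once on an unplaced sequence of chromosome 1. Of the 50-base words in a window from 500 bp before to 500 bp after the gene, 0% were found once in the genome for RNU1-3 and for RNU1-4, 40.3% for RNU1-1 and 42.1% for RNU1-2. With 100-base words the values were 0% for the first 2 genes, 73.8% for RNU1-1 and 64.6% for RNU1-2, and the read length is not stated in the sources used here. Fragments of these genes can be shared among the copies, and the 4 folds are not independent measurements.

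Exact copies of the U1 gene outside chromosome 1 gave a further comparison. RNU1-27P on chromosome 14 had folds of 12.7 and 6.17, and RNU1-28P beside it had 11.4 and 8.07. Their nearest summits were 83 bp upstream of the start in replicate 1 for both, but 437 and 599 bp downstream in replicate 2. Each carries ACCNT at the place of the element. These copies carry names ending in P, as used for pseudogenes, although their RNA sequence equals that of RNU1-1.

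Variant U1 genes encode U1-like RNAs, most with substitutions, and all but RNVU1-32, RNVU1-33 and RNVU1-34 lie on chromosome 1. Those with a peak in both replicates were RNVU1-3, RNVU1-4, RNVU1-6, RNVU1-14, RNVU1-19, RNVU1-21, RNVU1-25, RNVU1-27, RNVU1-29 and RNVU1-30. RNVU1-25 had the highest sum of folds, with 17.9 in replicate 1 and 5.58 in replicate 2. RNVU1-4 had the lowest sum among them, with 5.33 and 4.24. The other 8 had folds of 6.46 to 15.8 in replicate 1 and of 4.94 to 9.48 in replicate 2.

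Replicates differed most at 3 of these genes. RNVU1-25 was backed by 77 fragments in replicate 1 and 17 in replicate 2, RNVU1-19 (folds 15.8 and 5.53) by 102 and 23, and RNVU1-6 (folds 12.9 and 5.65) by 153 and 33. Among the remaining 7 genes the widest gap was at RNVU1-27, with 8.01 and 5.71. Nearest summits lay within 250 bp of the start at 9 of the 10 genes in both replicates. The exception was RNVU1-29, whose summits lay 590 and 511 bp downstream of the start.

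No peak in either replicate was called at RNVU1-1, RNVU1-2, RNVU1-2A, RNVU1-7, RNVU1-8, RNVU1-15, RNVU1-17, RNVU1-18, RNVU1-22, RNVU1-23, RNVU1-24, RNVU1-26, RNVU1-28, RNVU1-31, RNVU1-33 and RNVU1-34. RNVU1-32 had a peak in replicate 1 only, with a fold of 2.96 and 15 fragments at a summit 591 bp downstream of the start. Another annotated start lay within 3000 bp at 7 of the 10 called variant genes and at 4 of the other 17. At RNVU1-6, RNVU1-14 and RNVU1-19 the neighbouring start belongs to a noncoding RNA model that begins at the same base as the U1 gene. At RNVU1-21 the summits lay 11 and 42 bp from a LINC01138 start, against 197 and 166 bp from the start of RNVU1-21. At RNVU1-30 they lay 37 and 21 bp from a LINC00869 start, against 185 and 137 bp. At RNVU1-3 a noncoding RNA start was nearer in replicate 1 only, at 91 bp against 108 bp. Whether the peaks belong to the U1 gene or to these neighbours was not tested.

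The first 30 bases of a U1 gene hold the letters that pair with the 5′ splice site. They are shown on the gene's strand from position 1, with ACTTACCT at positions 3 to 10 in capitals where it is present, because the variant genes differ there. RNU1-1 (chr1:16514256-16514285, minus strand) is followed by RNVU1-19 (chr1:120850956-120850985, minus strand), RNVU1-25 (chr1:146409903-146409932, plus strand), RNVU1-4 (chr1:120942600-120942629, plus strand) and RNVU1-21 (chr1:148334738-148334767, minus strand), all with a peak in both replicates.
RNU1-1: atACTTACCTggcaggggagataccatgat
RNVU1-19: atACTTACCTggcaggggagatactattat
RNVU1-25: atacttacgtaacaggagaaaatacggcca
RNVU1-4: atgtttatctggcagaagaaatgttatgat
RNVU1-21: ctaattacctggcatcggagaggacgttat

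The unchanged pairing letters were present in 5 of the 10 variant genes with a peak and in 7 of the 17 without. The gene itself differed from RNU1-1 by a median of 20.5 edits (range 0 to 47) in called variants and 14 edits (range 0 to 65) in the others. Over the 80 bases before the start the medians were 16.5 (range 14 to 28) and 19 (range 14 to 50).

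Sequence uniqueness was compared between the called and the other variant U1 genes. Around called variants a median of 57.2% of 50-base words were found once in the genome (range 39.4 to 100), against 92.2% (range 0 to 99.9) around the others. With 100-base words the medians were 84.6% and 99.0%. Over 90% of the 50-base words were unique at 9 of the 17 genes without a call in both replicates, among them RNVU1-8, RNVU1-17 and RNVU1-34. At RNVU1-2A, RNVU1-26 and RNVU1-28 the share was 0%, each with a second exact copy on an alternate chromosome 1 sequence, and none of these alternate copies had a peak.

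**Figure D4:**
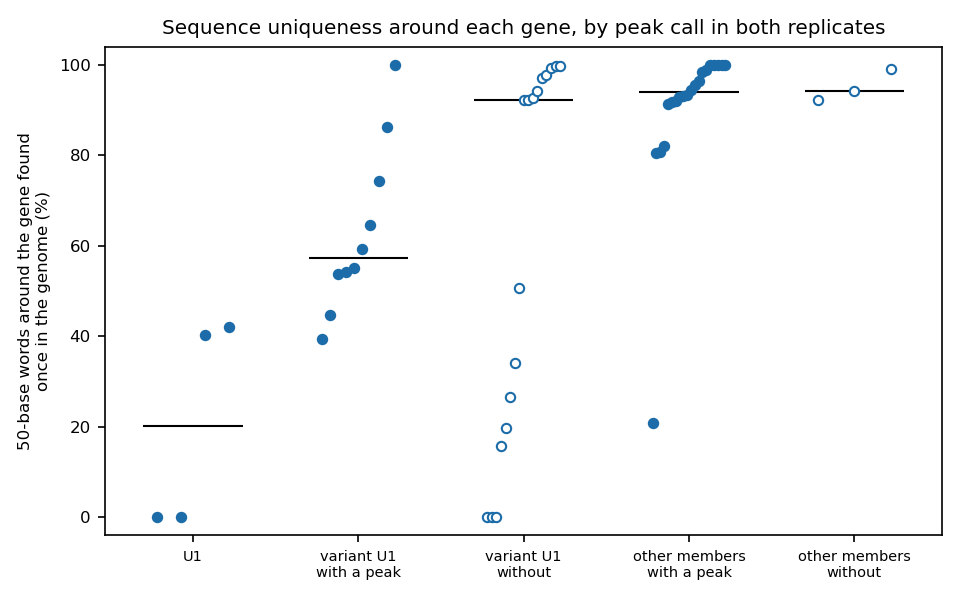
Each point is 1 gene, placed by the percentage of 50-base words within 500 bp of the gene that occur once in the genome, and lines are medians. Filled points had a peak in both replicates and open points did not. Variant U1 genes without a peak in both spread from 0% to 99.9%, with a median of 92.2% against 57.2% for those with one.

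RNVU1-18 and RNVU1-29 gave the closest pair. Both genes equal RNU1-1 base for base, and each has ACCNT at the place of the element. RNVU1-29 had folds of 9.44 and 9.33, whereas RNVU1-18 had no peak in either replicate. The RNVU1-29 summits lay 590 and 511 bp downstream of the start, past the end of the 164 bp gene. The windows differed in uniqueness, with 64.6% of 50-base words found once at RNVU1-29 and 19.7% at RNVU1-18.

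RNU2-1 encodes U2 snRNA, which pairs with the branch point, and is 1 of 11 exact copies in the chromosome 17 array. Its folds were 9.03 and 5.77, but the nearest summits lay 2360 bp upstream in replicate 1 and 526 bp downstream in replicate 2. The 10 other copies all had peaks within 1 kb in both replicates, with folds of 6.38 to 18.1 in replicate 1 and 5.72 to 13.6 in replicate 2. The copies at chr17:43239921-43240111 and chr17:43241180-43241370 took their folds from 1 shared peak in each replicate. All 10 overlap the annotated gene CCDC200. At 3 of the 10 copies the summit lay within 250 bp of the start in both replicates. Only 20.8% of the 50-base words around RNU2-1 were unique, and how fragments were divided over the array was not tested.

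The U4 genes lie side by side on chromosome 12 and encode the partner that holds U6 inactive before splicing. RNU4-2 had folds of 7.91 and 11.3 at a summit 137 bp upstream of the start in both replicates, with 59 and 48 fragments. RNU4-1 was called through the same peak, whose edge lay 144 and 207 bp from the gene. A further peak near RNU4-1 was found in replicate 1 only, with a fold of 3.70 and its summit 1115 bp upstream. Both U4 loci have mostly unique sequence (96.5% and 98.8% of 50-base words).

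U5 genes were called without a summit at any start. U5 snRNA aligns the exons at the catalytic core. RNU5E-1 had the highest folds, 16.2 and 10.6, at summits 563 and 478 bp downstream of the start. RNU5A-1 followed with 10.3 and 9.27 at 545 and 618 bp downstream, and RNU5D-1 with 9.11 and 8.15 at 503 and 470 bp upstream. RNU5F-1 had its highest fold upstream in replicate 1 (6.27 at 475 bp) and downstream in replicate 2 (4.77 at 988 bp), so these were different peaks. RNU5B-1, without a peak, had mostly unique sequence (99.2% of 50-base words) and carries ACCNT at the place of the element.

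Among the genes of the minor spliceosome, which removes a rare class of introns, all 4 were called in both replicates. RNU4ATAC had folds of 17.3 and 14.9 at a summit 193 and 192 bp upstream, but the start of CLASP1 lay nearer, 57 and 56 bp away. RNU11 had 9.49 and 9.35 at 352 bp upstream in both, 43 bp from the start of TAF12. RNU12 had 9.59 and 8.84 at 304 and 338 bp downstream, with the start of POLDIP3 within 3000 bp. RNU6ATAC, the Pol III member of this group, had 5.82 and 5.70 at 539 bp upstream in both and no other annotated start within 3000 bp.

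RNU7-1 encodes U7 snRNA, which directs the 3′ end cut of histone mRNAs that lack a poly(A) tail. Its folds were 14.7 and 14.1, backed by 108 and 64 fragments. The summits lay 358 and 397 bp downstream of the start of a gene of 63 bp, and only 52 and 91 bp from the start of C12orf57. Both replicates thus placed the highest signal beyond the U7 gene and nearer to the start of its protein-coding neighbour.

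Of the 3 members called in a single replicate, 2 were Pol III U6 genes. U6 snRNA forms the catalytic centre of the spliceosome. RNU6-8 had a fold of 9.61 in replicate 1, with 52 fragments at a summit 93 bp upstream, and no peak in replicate 2. RNU6-1 had a fold of 6.62 with 42 fragments at a summit 401 bp upstream in replicate 1, and again no peak in replicate 2. RNU6-7, which lies beside RNU6-8 on the opposite strand, had 3.31 and 4.16 at 696 and 693 bp upstream, nearer to the start of a noncoding RNA.

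RNU6-2 and RNU6-9 were called only through broad or distant peaks. The peak over RNU6-2 was 34780 bp long in replicate 1 and 12242 bp in replicate 2, with summits 29904 and 9064 bp upstream and folds of 20.5 and 7.46. The annotated starts nearest to these summits were those of WDR18, 484 bp away, and TMEM259, 169 bp away. RNU6-9 had folds of 7.38 and 8.22, with those summits 7100 and 2785 bp downstream of its start. No U6 gene had a summit within 250 bp of its start in both replicates.

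Exact copies of U6 outside the members had no peaks. RNU6-1, RNU6-2 and RNU6-9 share 1 gene sequence with 4 other copies, RNU6-3P, RNU6-4P, RNU6-5P and RNU6-6P, and none of these 4 had a peak in either replicate. ACCNT beginning 75 to 50 bases before the start was found in 4 of the 5 U6 members, RNU6-9 being the exception, and in 1 of these 4 copies, RNU6-3P. Around the 5 U6 members 91.3% to 94.3% of the 50-base words were unique.

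RN7SK encodes 7SK RNA, which holds the elongation factor P-TEFb in an inactive form. Its fold was 4.07 in replicate 1, with a summit 76 bp inside the gene, and 2.13 in replicate 2, with a summit 306 bp upstream. The fold in replicate 2 was among the lowest of its list, above 0.108% of the peaks, and that summit lay 11 bp from the start of GSTA4. Both summits had a high control level, 11.7 in each replicate, which was not particular to RN7SK. At the strongest peaks of all called members the median was 6.72 and the highest 21 in replicate 1. In replicate 2 the median was 5.01 and the highest 11.7, the level at RN7SK. At the strongest peaks of called Pol III members the median control level was 11.7 (range 4.09 to 21) in replicate 1. In replicate 2 it was 7.24 (range 1.68 to 11.7). RN7SL2 and RPPH1 each had 21 in replicate 1 and 11.7 in replicate 2.

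Both 7SL genes, which encode the RNA of the signal recognition particle, had summits inside the gene in both replicates. RN7SL1 had folds of 6.45 and 6.56, with 111 and 64 fragments at 23 and 24 bp from the start. RN7SL2 had folds of 5.53 and 5.43, with 131 and 68 fragments at 90 and 91 bp. The start of RPS29 lies 223 bp from the RN7SL1 summit, and no protein-coding start lies within 3000 bp of RN7SL2. Around the genes 80.6% and 82.0% of 50-base words were unique.

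RPPH1, the RNA of RNase P, which trims the 5′ end of tRNAs, had folds of 5.91 and 5.67 at summits 167 and 114 bp inside the gene, with 140 and 71 fragments. The start of PARP2 lay 375 and 322 bp from these summits. RMRP, the RNA of RNase MRP, which acts in ribosomal RNA processing, had 3.32 and 4.43 at summits 310 and 728 bp upstream. Both summits were nearer to the start of CCDC107 than to RMRP.

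Neighbouring starts moved with the calls across members. Members with another gene's start within 3000 bp were called in both replicates at 25 of 32, and those without at 9 of 22 (40.9%). The 9 were RNU1-2, RNU1-3, RNU2-1, RNU5A-1, RNU5D-1, RNU6ATAC, RNVU1-4, RNVU1-25 and RNVU1-29. Restricted to protein-coding starts, all 12 members with a neighbour were called and 22 of 42 (52.4%) without. Among genes no longer than the longest member the shares were 35.9% (702 of 1956) with a protein-coding start within 3000 bp and 7.17% (644 of 8988) without. Members exceeded the short genes in both classes, and the part of the neighbours in each peak was not tested.

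Promoter letters of the snRNA class were counted in the members. ACCNT beginning 62 to 56 bases before the start, searched on the gene's strand, was present in 32 of 43 Pol II members (74.4%) and 1 of 11 Pol III members, against 2.04% of all annotated genes and 2.80% of genes no longer than the longest member. All 4 major U1 genes held it, as did 9 of the 12 Pol II members outside the U1 families. The U1 and variant U1 genes are related copies, so the Pol II share counts similar start regions more than once. This window was set after the peaks were seen. Among variant U1 genes ACCNT was present there in 7 of the 10 with a peak in both replicates and 12 of the 17 without. In the wider window used for the capitals, 75 to 50 bases before the start, ACCNT was present in 36 of 43 Pol II members, 7 of 11 Pol III members and 7.26% of all genes, and among variant U1 genes in 10 of 10 with a peak and again 12 of 17 without. The comparison of called and other variant genes thus depends on the window, because RNVU1-3, RNVU1-4 and RNVU1-30 hold ACCNT 65 bases before the start. ACCNTNA, which contains ACCNT, began 75 to 40 bases before the start in 7 of 11 Pol III members, 7 of 43 Pol II members and 1.90% of all genes.

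Further letters were counted in both classes. TTATA beginning 36 to 18 bases before the start was found in 5 of 11 Pol III members, 1 of 43 Pol II members and 1.59% of all genes. ATGCAAA, the core of the octamer bound by POU2F1, was found on either strand from 250 bases before to 50 after the start in 7 of 11 Pol III members, 10 of 43 Pol II members and 5.86% of all genes. TTTT within 40 bases after the gene was found in 7 of 11 Pol III members (63.6%), 24 of 43 Pol II members (55.8%), 23.7% of genes no longer than the longest member and 32.9% of all genes. Runs of T inside the annotated gene, as at RNU6-2, or across its end, as at RN7SL2, were not counted in either class.

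The end of the gene is shown for RNU1-1 (chr1:16514082-16514121, minus strand), RNU5E-1 (chr1:11908272-11908311, plus strand) and RNU6-9 (chr19:893591-893630, plus strand), as the 40 bases after the annotated end on the gene's strand. Capitals mark AAANNNAGA, the letters used here for the 3′ box, in the Pol II genes and TTTT in the Pol III gene, because these are the ends used in place of a poly(A) site.
RNU1-1: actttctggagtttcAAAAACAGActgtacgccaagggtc
RNU5E-1: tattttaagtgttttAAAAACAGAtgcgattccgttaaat
RNU6-9: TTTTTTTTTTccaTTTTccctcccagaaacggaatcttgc

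AAANNNAGA was present within 40 bases after the gene in 15 of 43 Pol II members (34.9%), 0 of 11 Pol III members, 8.68% of genes no longer than the longest member and 3.55% of all genes. It followed all 4 major U1 genes. It followed 0 of the 10 variant U1 genes with a peak in both replicates and 5 of the 17 without. A match describes only the letters in this window, and a missing one says nothing about how the RNA ends.

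TGTA, the DNA form of the UGUA that NUDT21 recognises in RNA, was also counted on the gene's strand. From 250 bases before to 50 after the start it was present in 85.2% of members (46 of 54), 68.5% of genes no longer than the longest member and 52.5% of all genes. It was present in 28 of the 34 members with a peak in both replicates and in 18 of the 20 others. Beginning 62 to 44 bases before the start, where it overlaps the proximal sequence element, it was found in 4 of 4 major U1 genes, 10 of 10 called variant U1 genes and 13 of 17 other variant U1 genes. It was found there in 2 of the 12 Pol II members outside the U1 families, 2 of 11 Pol III members and 5.01% of all genes. Inside the gene, and so in the RNA itself, TGTA occurred in 13 of 54 members, of which 8 had a peak in both replicates, as did 26 of the 41 without it.

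Other small RNA genes outside the members were examined as a list of 15 names, of which 14 were annotated. A peak in both replicates was called at 7 of the 14, read beside 12.3% of genes no longer than the longest member and 32.7% of all genes. SNORD3A with SNORD3C and SNORD3B-1 with SNORD3B-2 were each called through 1 shared peak, so the 7 genes are not 7 separate loci. The U3 genes SNORD3A (24.0 and 19.5), SNORD3B-1 and SNORD3B-2 (38.5 and 20.3 at a shared peak) and SNORD3D (14.0 and 12.1) had high folds, and SNORD3C was reached by the SNORD3A peak. SNORD118 (5.26 and 5.67) and SNORD13 (4.25 and 3.40) were lower. U3, U8 and U13 RNAs guide ribosomal RNA processing and, like U1, come from their own promoters.

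No peak was found at the Pol III genes RNY1, RNY3, VTRNA1-1, VTRNA1-2, VTRNA1-3 and VTRNA2-1, which encode Y and vault RNAs, and RNY4 had one in replicate 1 only (4.92). RNY5 was not annotated under that name. Of 15 genes for factors that act at these promoters or bind these RNAs, such as subunits of the SNAP complex, POU2F1, ZNF143, LARP7 and MEPCE, 14 had a peak within 1 kb in both replicates, and BDP1 had one in replicate 1 only. These are long genes with protein-coding starts, for which the share of all genes, 32.7%, is itself no matched background.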

How the data were processed

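NUDT21 CUT&Tag was performed in J.gamma1 cells in 2 replicates of 1 group. The authors trimmed reads with fastp, aligned them to hg38 with Bowtie2 (version 2.2.5 per the labels), removed duplicates and called peaks per replicate with MACS3 (version 3.0.1 per the labels). The deposited lists gave each peak's position, the summit, the fold there over local background (a ratio), and −log10 values of p and q. A control library is not described in the sources used here. The lowest −log10 q in the lists was 2.00, so weaker signal was not seen.

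Genes came from GENCODE release 44, and peaks were assigned by their nearest edge within 1000 bp, on positions counted from 1. The fragments and control level at a summit were solved from the fold and −log10 p in the deposited lists, with a pileup scale of 0.921 in replicate 1 and 1 in replicate 2. All 1000 sampled peaks of each list had a solution within 0.002. Assignment and recovery were tested on simulated data. Words of 50 and 100 bases were counted over all sequences of the hg38 genome, on both strands. Sequences were read from that genome.

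Members and lists were chosen with earlier results of these data known. Every member was accounted for, and in families above 5 genes the highest and lowest fold sums and the genes without a peak were named. Word uniqueness, exact copies, the ACCNT, TGTA, AAANNNAGA and TTTT windows, the U1 5′ ends and the 250 bp summit measure were added after the peaks were seen. No test was made, because both samples belong to 1 group and genes are not replicates. Alternatives were other distances, stricter peak sets, single replicates and members without neighbouring starts. Analyses used Python 3.11.15, pandas 2.3.3, numpy 2.4.6, scipy 1.17.1, pysam 0.24.0 and matplotlib 3.10.9.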

Additional observations from a re-analysis of the deposited data

Results flagged for a closer look

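An exact copy of the RNU1-1 gene on an unplaced sequence of chromosome 1, outside the main chromosomes and outside the gene annotation used, had a peak in both replicates. Its fold was 12.2 in replicate 1 and 14.3 in replicate 2, with summits 125 and 121 bp upstream of the start, and it carries ACCNT at the place of the proximal sequence element. It drew attention because no comparison of called genes includes that sequence, although the word counts cover it. The division of fragments between this copy and the named U1 genes was not tested.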

How the results depend on the processing

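The count of 34 members with a peak in both replicates stayed between 25 and 36 when peaks had to overlap the gene, lie within 3000 bp, have their summit within 1000 bp, reach a −log10 q of 5 or belong to the 10000 strongest, and when neighbouring members were counted as 1 locus. It was 34 to 37 with a single replicate. Among members without another start within 3000 bp it was 9 of 22 (8 of 21 Pol II, 1 of 1 Pol III), a smaller set by construction. With a summit within 250 bp of the start, chosen after seeing the data, it was 18 (15 Pol II, 3 Pol III). The share of other family copies, 6.44%, became 2.14% with overlap, 12.6% within 3000 bp, 3.84% by summit, 1.57% with the 10000 strongest peaks, 0.734% by summit at the start, and 7.34% to 10.9% with a single replicate. It was below the share of members under each. The mean of both median folds, 7.92, was 9.25 with the 10000 strongest peaks and 7.23 to 8.60 with a single replicate. ACCNTNA was found in 59.3% of members over the whole window and 37.0% before the start only, so part of its matches lie inside the genes. No paired analysis was possible because there is only 1 group. Depth in absolute reads is unknown, and repeated gene copies limit the placing of fragments.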
